A study of Homo sapiens with 24 samples.

Results

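The quantity described here is how far knockdown of SFPQ changed the transcriptional response to TGF-beta in liver cancer cell lines. For each gene and line it is the log2 change with TGF-beta in siSFPQ cells minus the log2 change with TGF-beta in siCTL cells, called the interaction below. An interaction of 0 means an equal response in both, and an interaction of 1 means that the fold change in siSFPQ cells was 2 times that in siCTL cells. All 24 libraries of the series enter it, 24 of 24, as 6 interaction values per gene, 1 for each line. Polyadenylated RNA had been sequenced from the lines HepG2, Hep3b, Huh1, Huh7, SK-HEP1 and HLE, as labelled. Each gave 1 library of each of 4 groups, so each group holds 6 libraries: siSFPQ cells given TGF-beta at 2 ng/ml for 24 hours, siSFPQ cells left without it, siCTL cells given TGF-beta, and siCTL cells left without it. All cells had been grown in DMEM with 10% FBS. The labels describe a single knockdown of SFPQ without a rescue, so loss of SFPQ and off-target action of the siRNA cannot be told apart.

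TGF-beta ligands are stored in a latent complex, signal through a pair of receptor kinases, and act on genes through the SMAD proteins, which enter the nucleus and bind DNA with partner transcription factors. The pathway induces its own inhibitors, matrix and cytoskeletal genes, and in liver cells it can halt growth, cause cell death or drive a mesenchymal change. SFPQ is an RNA-binding and DNA-binding protein of nuclear paraspeckles, with roles in splicing and in transcription, above all of long genes.

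The libraries differed in depth, and some went against their label in several markers. The files hold FPKM, which are fragments per kilobase and per library size, and from the size of 1 read in low genes the depth was estimated at 0.354 to 1.74 of the median library. The shallowest were siSFPQ libraries, that of Huh7 with TGF-beta (0.354) and that of HepG2 without it (0.406). The libraries labelled Hep3b lacked hepatocyte markers: their median was 0.769 FPKM for albumin (ALB), 2.15 for APOA1 and 0.465 for the hepatocyte factor HNF4A, and they held 93.8 FPKM of the fibroblast collagen COL3A1, which was also high in SK-HEP1 (69.9) and at most 4.96 in the other lines. ALB was also low in HLE (1.21) and SK-HEP1 (0.737), against 523 in Huh1, 127 in Huh7 and 740 in HepG2. Of the oncofetal liver markers, AFP was 10.3 FPKM in the libraries labelled Hep3b. It was 0.891 in HLE, 0.164 in SK-HEP1, 19.4 in Huh1, 180 in HepG2 and 9985 in Huh7. GPC3 was lowest in the libraries labelled Hep3b (0.399). Calls are therefore given with and without the libraries labelled Hep3b. Of 6 endothelial markers 0 reached the level needed for a test, and their summed level was 0.400 to 0.962 FPKM in siSFPQ libraries with TGF-beta and 0.467 to 1.14 without it, against 0.178 to 1.11 in siCTL libraries with TGF-beta and 0.417 to 1.62 without it.

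SFPQ itself was far lower in siSFPQ than in siCTL cells throughout. Its level (lowest, median and highest of 6 lines) was 26.5, 37.7 and 54.6 FPKM in siSFPQ cells with TGF-beta and 23.5, 38.5 and 51.4 FPKM in siSFPQ cells without it. In siCTL cells it was 84.7, 168 and 248 FPKM with TGF-beta and 90.4, 176 and 247 FPKM without it, so every siSFPQ library lay below every siCTL library. With TGF-beta, 10.7% (HLE) to 44.8% (Huh1) of the siCTL level was left, and without it 9.49% (HLE) to 45.2% (HepG2). Its interaction was 0.12 (SE 0.06, adjusted p = 0.461).

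Among 13496 genes tested, 34 had an interaction past an adjusted p of 0.05 (0.252%), and most of them had a more positive TGF-beta response in siSFPQ cells. The interaction was positive for 30 (0.222%) and negative for 4 (0.0296%), and each of the 34 had 1 sign in 6 of 6 lines. 3 kinds of change were told apart from the mean responses over 6 lines. A response was called reversed where it had opposite signs in siSFPQ and siCTL cells and was at least 0.2 on the log2 scale in each. Otherwise it was called gained where it was farther from 0 in siSFPQ cells, and lost where it was nearer to 0. By this rule 20 responses were gained (0.148% of genes tested), 12 reversed (0.0889%) and 2 lost (0.0148%). The classes themselves were not tested. In siSFPQ cells 19 of the 34 were also called higher with TGF-beta (2.25% of all genes were) and 2 lower (2.88%). In siCTL cells 1 was called. The other responses did not pass by themselves, and their classes rest on the means alone. Of the 20 gained, 18 were rises and 2 were falls in siSFPQ cells, by the sign of the mean response, and of the 12 reversed, 10 were above 0 in siSFPQ cells. Over all genes tested 40.6% of interactions were above 0 and 59.4% below it, and the median was -0.03, with median responses of -0.05 in siSFPQ cells and -0.02 in siCTL cells. The test is limma's moderated test with an effect of siRNA and of TGF-beta for each line, so it rests on 5 residual degrees of freedom. A fit with the line as the only block called 0 genes and had 203 with p under 0.05 before adjustment, against 1688 in the test used here.

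**Figure D1:**
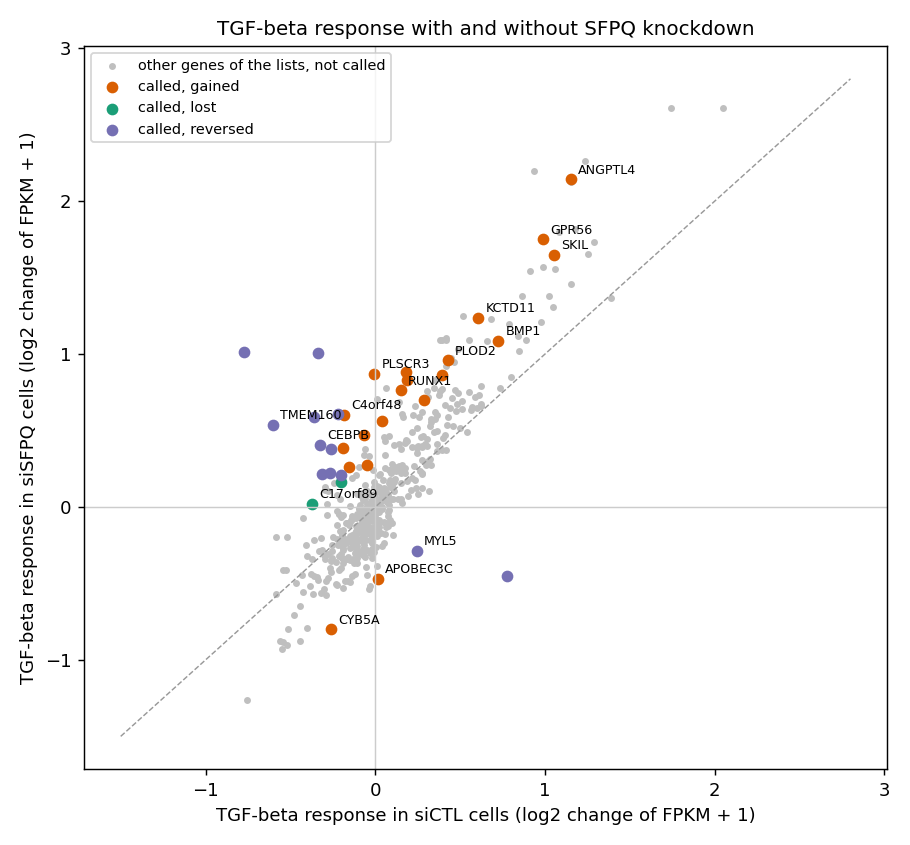
Mean TGF-beta response over 6 lines in siSFPQ cells (y axis) and in siCTL cells (x axis), both as log2 changes of FPKM + 1. Coloured points are the 34 genes called in the interaction by class, grey points are the other genes of the gene lists, and the dashed line marks equal responses. ANGPTL4, at 2.15 in siSFPQ cells and 1.15 in siCTL cells, lies far above the line, and TMEM160 lies above 0 in siSFPQ cells (0.54) and below 0 in siCTL cells (-0.60).

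Without the libraries labelled Hep3b, 13 genes were called, 13 positive and 0 negative, with 1331 at an unadjusted p under 0.05. Of the 13, 12 were among the 34. Those 12 were TMEM160, C4orf48, PLOD2, ANKRD9, PLSCR3, NR2F6, GPR56, PRR24, MARCKSL1, VASN, NEDD8-MDP1 and LOC100652739. Leaving out each line in turn, 7 of the 34 were called every time: TMEM160, C4orf48, PLOD2, ANKRD9, GPR56, NEDD8-MDP1 and LOC100652739. Another 8 were called in none of these smaller fits, among them BMP1, KCTD11, SAMD1, YY1 and MYL5. All 34 kept their sign in each of them.

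ANGPTL4 and SKIL were the gained responses with the clearest place in the TGF-beta pathway. ANGPTL4 encodes a secreted inhibitor of lipoprotein lipase that SMAD signalling induces, and SKIL encodes SnoN, a corepressor that binds SMADs and is induced as a brake on them. The 250 bases before each RefSeq start site (build GRCh38.p14, read on the gene's strand) are shown for these 2 gained genes, with any SMAD box in capitals, since SMADs are the pathway's own DNA-binding factors. SKIL is at chr3:170357465-170357714 (plus strand) and ANGPTL4 at chr19:8363905-8364154 (plus strand).
SKIL: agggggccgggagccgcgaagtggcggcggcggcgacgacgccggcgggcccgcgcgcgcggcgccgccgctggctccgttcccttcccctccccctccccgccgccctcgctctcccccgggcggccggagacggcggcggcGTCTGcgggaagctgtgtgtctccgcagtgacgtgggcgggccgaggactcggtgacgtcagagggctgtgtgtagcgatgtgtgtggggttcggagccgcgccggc
ANGPTL4: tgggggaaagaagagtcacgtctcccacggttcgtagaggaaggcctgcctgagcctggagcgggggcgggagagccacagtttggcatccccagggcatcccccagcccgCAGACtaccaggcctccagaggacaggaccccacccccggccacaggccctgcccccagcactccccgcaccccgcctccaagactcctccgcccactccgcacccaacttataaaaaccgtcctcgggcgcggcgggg
The search was for CAGAC on both strands, so GTCTG also counts, and each of these windows held 1 match. Of 35116 such promoter windows 38% held at least 1. Among called genes the table held windows for 24 of 34, and 8 of those had a match. The AP-1 sequences TGACTCA and TGAGTCA were in 4.203% of all windows and in 1 of the 24. A match describes letters and not binding.

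ANGPTL4 rose with TGF-beta in siSFPQ cells in 6 of 6 lines. Its level was 15.2, 103 and 423 FPKM (lowest, median and highest line) in siSFPQ cells with TGF-beta and 3.01, 13.1 and 109 FPKM in siSFPQ cells without it. In siCTL cells it was 4.55, 29.7 and 107 FPKM with TGF-beta and 2.91, 12.5 and 35.5 FPKM without it. The groups overlapped across lines, with far more of it in SK-HEP1 and HLE than in HepG2 and Huh7. In bulk RNA, more cells expressing a gene and more of its RNA per cell cannot be told apart. Within lines the response was larger in siSFPQ cells each time, most in HepG2 (2.17 in siSFPQ cells, 0.51 in siCTL cells) and least in SK-HEP1 (1.95 in siSFPQ cells, 1.45 in siCTL cells). The mean response was 2.15 ± 1.12 in siSFPQ cells (SD, n = 6, adjusted p = 0.0311) and 1.15 ± 1.15 in siCTL cells (adjusted p = 0.191), an interaction of 0.99 (SE 0.13, adjusted p = 0.0197). Without Hep3b, whose siCTL cells had a response of -0.29, it was 0.96 (adjusted p = 0.0906).

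SKIL had 8.74, 23.1 and 42.7 FPKM in siSFPQ cells with TGF-beta and 2.33, 6.95 and 16.1 FPKM in those without it. In siCTL cells the lowest, median and highest line had 6.82, 18.7 and 29.7 FPKM with TGF-beta and 2.45, 8.19 and 13.4 FPKM without it. The response was 1.65 ± 0.80 in siSFPQ cells and 1.05 ± 0.74 in siCTL cells (SD, n = 6 each), and the interaction 0.60 (SE 0.09, adjusted p = 0.0333) ranged between 0.30 in Huh7 and 0.92 in Hep3b. Without Hep3b it was 0.53 (adjusted p = 0.103). Other brakes on the pathway had positive values that did not pass over all genes. PMEPA1, which holds SMADs away from the receptor, had 0.87 (adjusted p = 0.115), with responses of 2.61 in siSFPQ cells and 1.74 in siCTL cells. SMAD7, the inhibitory SMAD, had 0.28 (adjusted p = 0.249) and the ubiquitin ligase SMURF2 had 0.22 (adjusted p = 0.204). Of the 11 feedback inhibitors tested, 1 was called (0.252% of all genes were) and 6 were positive in 6 of 6 lines (2.92% of all genes were). Their median interaction was 0.23, with median responses of 0.43 in siSFPQ cells and 0.25 in siCTL cells.

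**Figure D2:**
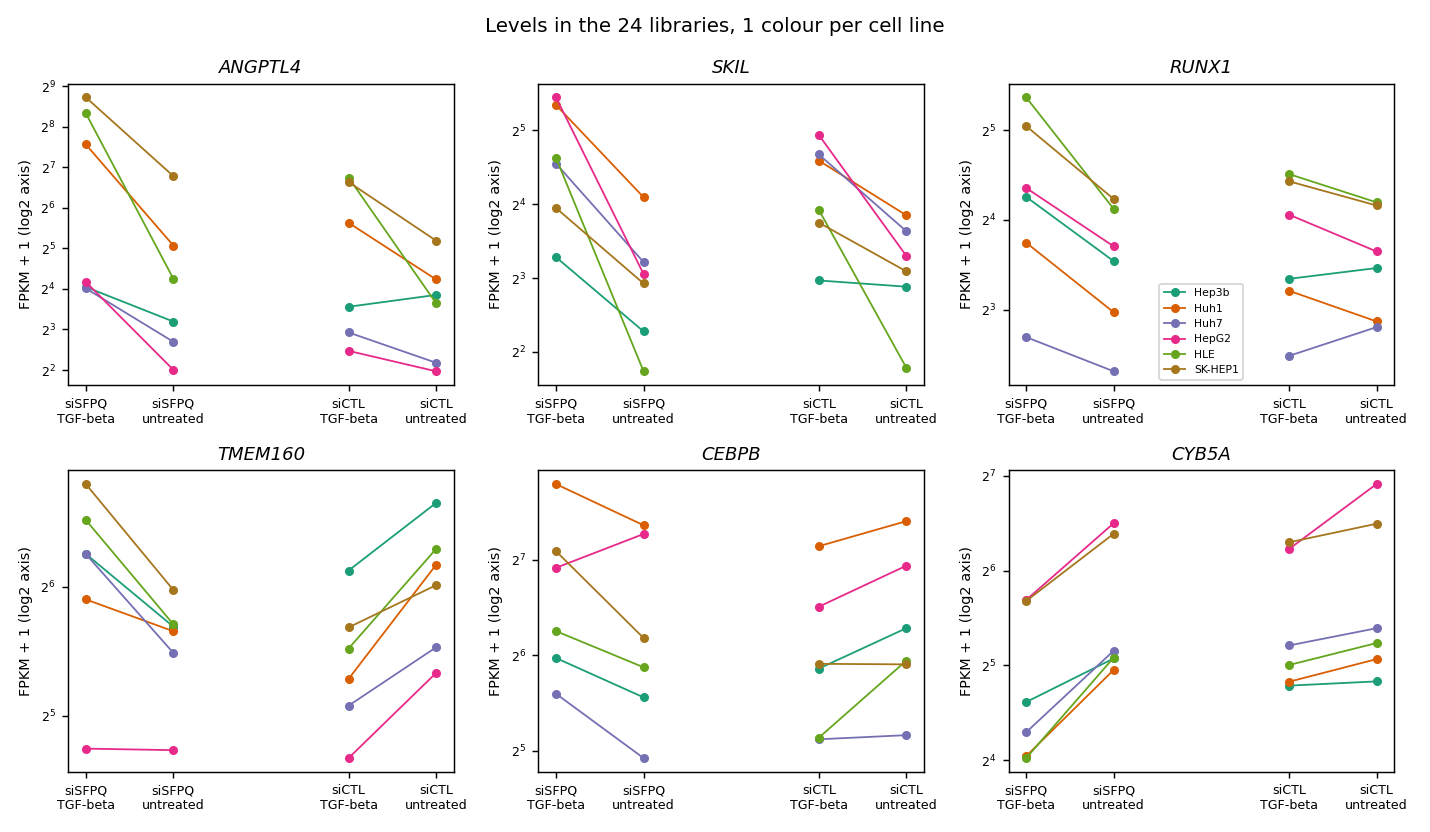
FPKM + 1 on a log2 axis for 6 genes in the 24 libraries, with lines joining the TGF-beta-treated and untreated library of 1 cell line under siSFPQ (left) and siCTL (right). ANGPTL4, SKIL and RUNX1 slope more steeply under siSFPQ, TMEM160 and CEBPB slope in opposite directions in most lines, and the fall of CYB5A with TGF-beta is deeper under siSFPQ.

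Gained rises included those of RUNX1 and other genes of transcription, grouped here after the calls were seen. RUNX1, a runt-domain factor that partners SMADs, had 5.47, 18.8 and 40.3 FPKM in siSFPQ cells with TGF-beta and 3.96, 11.3 and 17.8 FPKM in siSFPQ cells without it. In siCTL cells it had 4.59, 12.4 and 21.8 FPKM with TGF-beta and 5.99, 10.8 and 17.3 FPKM without it, so the 2 siCTL ranges lay close together. Its response was 0.76 ± 0.28 in siSFPQ cells (adjusted p = 0.0232) and 0.15 ± 0.30 in siCTL cells (SD, n = 6 each), and its interaction was 0.61 (SE 0.09, adjusted p = 0.0333; 0.57 and adjusted p = 0.121 without Hep3b). NR2F6, an orphan nuclear receptor, had responses of 0.47 in siSFPQ cells and -0.06 in siCTL cells (interaction 0.54, adjusted p = 0.0111). YY1, a zinc-finger factor that activates or represses, had the smallest positive interaction of the called genes, 0.32 (adjusted p = 0.0487), with responses of 0.28 in siSFPQ cells and -0.05 in siCTL cells. The zinc-finger genes ZNF579 (0.58) and ZNF580 (0.42) and the chromatin gene SAMD1 (0.53) were also gained.

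Among the other gained rises were genes of matrix, membrane and signalling proteins, likewise grouped afterwards. PLOD2, the lysyl hydroxylase that prepares collagen for cross-linking, had 87.1, 180 and 197 FPKM in siSFPQ cells with TGF-beta and 51.4, 85.2 and 123 FPKM in siSFPQ cells without it. In siCTL cells it had 61.02, 104 and 127 FPKM with TGF-beta and 51.8, 72.6 and 124 FPKM without it. Its interaction of 0.53 (SE 0.05, adjusted p = 0.00608) was among the most even, between 0.41 and 0.52 in 5 lines and 0.71 in Hep3b, and it was 0.49 without Hep3b. BMP1, the procollagen C-proteinase, rose by 1.09 in siSFPQ cells and had a response of 0.72 in siCTL cells (interaction 0.36, adjusted p = 0.0333). VASN, a membrane protein that can trap TGF-beta, had responses of 0.89 in siSFPQ cells and 0.18 in siCTL cells (interaction 0.70, adjusted p = 0.0245).

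GPR56, an adhesion receptor of collagen-rich matrix, had the second largest TGF-beta response of the called genes in siSFPQ cells. Its level was 6.30, 46.3 and 224 FPKM in siSFPQ cells with TGF-beta and 1.66, 16.0 and 37.9 FPKM in siSFPQ cells without it. The corresponding levels in siCTL cells were 4.16, 35.2 and 218 FPKM with TGF-beta and 0.711, 23.5 and 69.6 FPKM without it. The response was 1.75 ± 0.66 in siSFPQ cells (adjusted p = 0.0191) and 0.99 ± 0.52 in siCTL cells (SD, n = 6 each, adjusted p = 0.0665), an interaction of 0.76 (SE 0.09, adjusted p = 0.0111). KCTD11, an adaptor of a cullin ubiquitin ligase, had responses of 1.24 in siSFPQ cells and 0.61 in siCTL cells (interaction 0.63, adjusted p = 0.0415). PLSCR3, a mitochondrial phospholipid scramblase, had a near-zero response in siCTL cells (-0.01) and one of 0.87 in siSFPQ cells, which itself did not pass (adjusted p = 0.0534). Its interaction of 0.88 (SE 0.10, adjusted p = 0.0111) was lowest in HLE (0.35) and highest in Huh7 (1.30). The kinase ALPK2 (0.64), the actin-binding MARCKSL1 (0.41), FAM214B (0.47) and C4orf48 (0.79, SE 0.07, adjusted p = 0.00275) complete the gained rises. C4orf48 had responses of 0.60 in siSFPQ cells and -0.19 in siCTL cells, just short of the limit of 0.2 for a reversal, and so had ZNF579 (0.39 in siSFPQ cells, -0.19 in siCTL cells).

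The 2 gained falls were of CYB5A and APOBEC3C. CYB5A, cytochrome b5, an electron donor for lipid and drug metabolism, had 15.3, 21.1 and 50.6 FPKM in siSFPQ cells with TGF-beta and 29.98, 33.8 and 89.4 FPKM in siSFPQ cells without it. In siCTL cells it had 26.6, 33.6 and 77.6 FPKM with TGF-beta and 27.5, 38.8 and 119 FPKM without it. It fell in siSFPQ cells in 6 of 6 lines (-0.80 ± 0.20, SD, adjusted p = 0.00841), against -0.26 ± 0.22 in siCTL cells (adjusted p = 0.167). The interaction was -0.54 (SE 0.09, adjusted p = 0.0415), smallest in HepG2 (-0.12) and largest in HLE (-0.83), and -0.56 without Hep3b (adjusted p = 0.114). APOBEC3C, a cytidine deaminase that edits viral DNA, changed by -0.47 in siSFPQ cells (adjusted p = 0.0447) and by 0.01 in siCTL cells, an interaction of -0.48 (SE 0.07, adjusted p = 0.0314).

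The reversed responses were mostly of genes whose mean response was below 0 in siCTL cells and above 0 in siSFPQ cells. Apart from TMEM160, none of the reversed genes was called in siCTL cells. TMEM160, a small transmembrane protein gene, was called in all 3 tests. It rose with TGF-beta in siSFPQ cells (0.54 ± 0.34, adjusted p = 0.0412), fell in siCTL cells (-0.60 ± 0.21, SD, n = 6 each, adjusted p = 0.0422), and had an interaction of 1.14 (SE 0.10, adjusted p = 0.00199). Its level was 25.8, 75.4 and 110 FPKM in siSFPQ cells with TGF-beta and 25.6, 50.05 and 61.9 FPKM in siSFPQ cells without it. The levels in siCTL cells were 24.5, 41.5 and 68.9 FPKM with TGF-beta and 39.3, 67.4 and 99.6 FPKM without it. The change was above 0 in siSFPQ cells in 6 of 6 lines, though only 0.01 in HepG2, and below 0 in siCTL cells in 6 of 6, between -0.89 in Huh1 and -0.33 in SK-HEP1. Set against siCTL cells, TMEM160 in siSFPQ cells was higher with TGF-beta (0.68, adjusted p = 0.0150) and lower without it (-0.46, adjusted p = 0.0300). Over all genes, knockdown gave 8.47% higher and 21.8% lower calls with TGF-beta, and 6.69% higher and 15.0% lower calls without it.

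CEBPB encodes a leucine-zipper transcription factor of liver and fat. It had 47.4, 97.5 and 221 FPKM in siSFPQ cells with TGF-beta and 29.3, 64.6 and 163 FPKM in siSFPQ cells without it. In siCTL cells it had 33.8, 58.1 and 140 FPKM with TGF-beta and 34.8, 68.7 and 168 FPKM without it. The mean responses were 0.41 in siSFPQ cells (adjusted p = 0.111) and -0.33 in siCTL cells (adjusted p = 0.182), so neither passed by itself, while the interaction of 0.74 (SE 0.12, adjusted p = 0.0398) did. HepG2 stood apart, with -0.35 in siSFPQ cells, -0.43 in siCTL cells and an interaction of 0.08. Without Hep3b the interaction was 0.72 (adjusted p = 0.159). The promoter windows of these 2 reversed genes are shown beside those of the 2 gained genes above. The genes shown were picked, and matches were not counted by class. TMEM160 is at chr19:47048625-47048874 (minus strand) and CEBPB at chr20:50190333-50190582 (plus strand), and neither window held a SMAD box or an AP-1 sequence, so nothing is in capitals.
TMEM160: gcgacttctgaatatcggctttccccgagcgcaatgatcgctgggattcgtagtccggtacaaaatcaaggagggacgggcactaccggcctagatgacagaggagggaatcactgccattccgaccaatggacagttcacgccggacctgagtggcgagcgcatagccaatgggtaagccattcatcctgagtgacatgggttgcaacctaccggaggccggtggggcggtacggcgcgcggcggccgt
CEBPB: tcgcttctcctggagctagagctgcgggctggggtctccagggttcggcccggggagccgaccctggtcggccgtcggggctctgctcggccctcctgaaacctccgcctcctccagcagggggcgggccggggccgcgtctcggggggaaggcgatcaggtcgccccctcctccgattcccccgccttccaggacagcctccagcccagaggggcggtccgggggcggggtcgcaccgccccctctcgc

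Another 7 named reversed genes were called, 6 of them above 0 in siSFPQ cells. ANKRD9 had responses of 0.38 in siSFPQ cells and -0.26 in siCTL cells (interaction 0.64, SE 0.07, adjusted p = 0.00784), and PRR24 had 0.59 in siSFPQ cells and -0.36 in siCTL cells (interaction 0.95, adjusted p = 0.0165). ANKRD37, a hypoxia-induced gene, had 0.61 in siSFPQ cells and -0.22 in siCTL cells (interaction 0.82, adjusted p = 0.0245), at low levels of at most 6.48 FPKM in any library. GADD45GIP1, a protein of the mitochondrial ribosome, had 0.22 in siSFPQ cells and -0.27 in siCTL cells (interaction 0.49). C8orf82 had 0.22 in siSFPQ cells and -0.31 in siCTL cells (interaction 0.53), and the linker histone H1FX had 0.21 in siSFPQ cells and -0.20 in siCTL cells (interaction 0.41). MYL5, a myosin light chain, was reversed the other way, with -0.29 in siSFPQ cells and 0.24 in siCTL cells (interaction -0.53, adjusted p = 0.0487), also at low levels of at most 4.91 FPKM. H1FX, GADD45GIP1 and C8orf82 lie just past the limit of 0.2. With a limit of 0.1 the reversed genes numbered 16, and with 0.3 they numbered 6. The other 3 reversed calls are uncertain and were named after their values were seen: NEDD8-MDP1 (1.79), a read-through of neighbouring genes, the uncharacterised LOC100652739 (1.34), and BCYRN1 (-1.23), which has many near-identical copies.

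**Figure D3:**
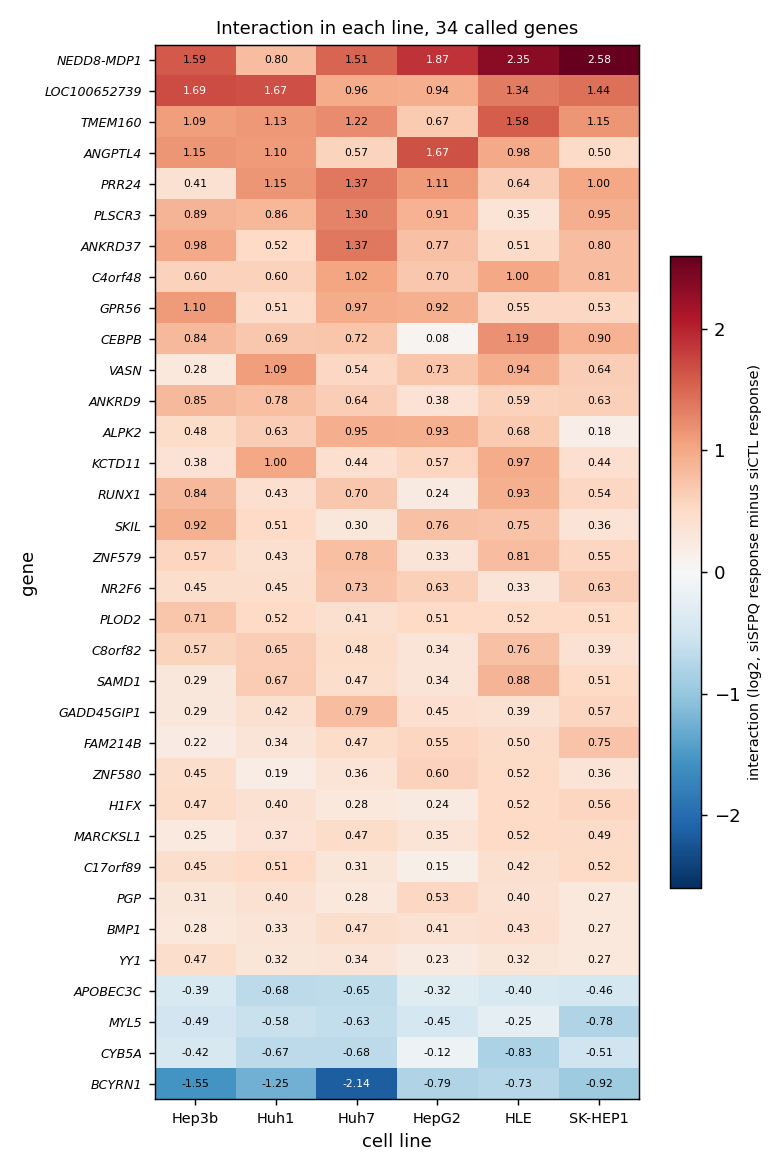
Interaction in each of 6 lines (columns) for the 34 called genes (rows), sorted by their mean, with red for a more positive and blue for a more negative response in siSFPQ cells, in log2 units. Every row keeps 1 colour, and weak cells such as CEBPB in HepG2 (0.08) stand beside strong ones such as TMEM160 in HLE (1.58).

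Losses of response were few. C17orf89, a complex I assembly factor gene, was lower with TGF-beta in siCTL cells in 6 of 6 lines (-0.37, adjusted p = 0.0828). Its mean response in siSFPQ cells was near 0 (0.02), an interaction of 0.39 (SE 0.06, adjusted p = 0.0385). Line by line its siSFPQ response ran between -0.34 in HepG2 and 0.48 in SK-HEP1. Its level in siSFPQ cells was 23.6, 73.5 and 192 FPKM with TGF-beta and 23.5, 73.5 and 137 FPKM without it, and in siCTL cells 26.5, 76.0 and 129 FPKM with TGF-beta and 33.0, 107 and 150 FPKM without it. PGP, phosphoglycolate phosphatase, had 0.16 in siSFPQ cells and -0.20 in siCTL cells (interaction 0.36, adjusted p = 0.0415). Its mean response thus changed sign, and in siSFPQ cells it fell just short of the limit of 0.2 for a reversal. Neither passed without Hep3b (adjusted p = 0.160 for C17orf89 and 0.146 for PGP). At a looser limit, an unadjusted p under 0.01 with 1 sign in 6 of 6 lines, 364 genes passed (2.70%), 204 positive (1.51%) and 160 negative (1.19%), of which 329 were gained (2.44%), 23 lost (0.170%) and 12 reversed (0.0889%). The 329 gained responses were 180 rises and 149 falls in siSFPQ cells. Further lost genes by p were PDF, a mitochondrial deformylase (0.43), CTU1, which modifies transfer RNAs (0.40), UBE2S, a ubiquitin-conjugating enzyme of mitosis (0.30), RMI2 (0.35), IRX3 (0.41) and LTB4R2 (0.38). None of these 6 passed over all genes, with adjusted p-values of 0.0823 to 0.204. Without Hep3b, PDF had responses of 0.15 in siSFPQ cells and -0.31 in siCTL cells. In the same order CTU1 had 0.16 and -0.19, UBE2S 0.07 and -0.27, IRX3 0.12 and -0.30, and LTB4R2 0.08 and -0.23. RMI2 alone of the 6 kept 1 sign there, at -0.11 and -0.48. The others changed sign, with a siSFPQ response short of the limit of 0.2 for a reversal, and the same held over all 6 lines.

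Of the 12 genes called in siCTL cells, which respond without knockdown, TMEM160 alone had an interaction past the test. In siSFPQ cells 268 genes rose with TGF-beta (2.25% of 11886 tested) and 342 fell (2.88%), and in siCTL cells 8 rose (0.0658% of 12166) and 4 fell (0.0329%). The difference between these counts was not tested. TAGLN, an actin-binding protein of contractile cells, had a response of 1.36 ± 0.72 in siSFPQ cells and 1.39 ± 0.37 in siCTL cells (SD, n = 6 each), an interaction of -0.03 (SE 0.12, adjusted p = 0.952). The tropomyosins TPM1 (0.05) and TPM4 (0.07) also had interactions near 0, and PDLIM7, a LIM-domain protein of stress fibres, had 0.17. ITGA5, the fibronectin receptor subunit, had responses of 1.09 in siSFPQ cells and 0.55 in siCTL cells, an interaction of 0.54 (SE 0.11, adjusted p = 0.102) that did not pass. MEX3B (0.49), PDXK (0.25), GABARAPL1 (0.24), UGCG (-0.20), MCCC1 (-0.09) and ENO1-AS1 (0.39) did not pass either. ENO1-AS1 is an antisense gene of ENO1, and without stated strand counting its reads cannot be told apart from those of ENO1.

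No receptor or SMAD was called in the interaction, among 17 tested, where 0.252% of all genes tested were called. For lists this short, 0 calls is near that share. SMAD4, the shared SMAD, had an interaction of 0.01 (SE 0.08, adjusted p = 0.974), with 6.18, 7.32 and 10.1 FPKM in siSFPQ cells with TGF-beta and 5.43, 7.30 and 9.34 FPKM without it, against 5.84, 6.98 and 10.0 FPKM in siCTL cells with TGF-beta and 5.56, 6.71 and 9.63 FPKM without it. Over the 17 receptors and SMADs tested the median interaction was 0.01, and TGFBR1, the type I receptor (0.33, adjusted p = 0.145), and the activin receptor ACVR2A (-0.20, adjusted p = 0.370) had the smallest p. Among 14 ligands and latency proteins 0 were called, but 10 had positive values (40.6% of all genes did). Their median was 0.23, against -0.03 over all genes. The latency proteins LTBP3 (0.37) and LTBP2 (0.52), the activin antagonist FSTL3 (0.50) and TGFB1 itself (0.54) were positive in 6 of 6 lines without passing over all genes. GDF15, a stress-induced ligand, ran the other way (-0.50), negative in 6 of 6 lines.

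Among the pathway's outputs, secreted targets had the highest median interaction of the lists. Over all genes tested 0.252% were called and 40.6% had positive values. Of 12 secreted targets 1 was called (ANGPTL4), 11 had positive values and the median was 0.52, with median responses of 1.38 in siSFPQ cells and 1.10 in siCTL cells. CTGF, a matricellular factor, had 0.50, PTHLH had 0.53 and the growth factor PDGFB had 0.97, with adjusted p-values of 0.168 to 0.260. The list's median ran between 0.13 in HepG2 and 0.79 in HLE, and its siCTL response was weakest in Hep3b (0.28, against 0.76 in siSFPQ cells of that line). Without Hep3b the median was 0.56. Of 29 collagen and matrix genes 1 was called (PLOD2), 23 had positive values and the median was 0.17; COL1A1 had 0.56 and BGN, whose median was under 1 FPKM in every group, had 0.71. Of 13 proteases and inhibitors 0 were called with a median of 0.25, and the smallest p were those of ADAM19 (0.72), PLAUR (0.26), MMP14 (0.26) and MMP15 (0.38). Of 12 integrins 0 were called with a median of 0.13, and ITGAV had 0.55. Of 17 TGF-beta-responsive transcription regulators 2 were called, RUNX1 and CEBPB, with a median of 0.17, and FOXQ1 (0.41, adjusted p = 0.0817) and JUNB (0.40) followed.

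Actin cytoskeleton genes rose with TGF-beta in siSFPQ and in siCTL cells. In siSFPQ cells 11 of 17 tested rose (2.25% of all genes did) and in siCTL cells 4 of 16 (0.0658% of all genes did). The median responses were 0.63 in siSFPQ cells and 0.47 in siCTL cells. In the interaction, whose median was 0.08, 0 were called (0.252% of all genes tested were). The smallest p were those of PALLD (0.27) and ACTN1 (0.21), of stress fibres, and of LMCD1, a LIM-domain gene, at 1.26 (adjusted p = 0.330) with 3.87 in HLE. Of 15 cytostatic genes 0 were called and the median was -0.10. CDKN1A, the p21 inhibitor of cyclin-dependent kinases, had -0.12 (SE 0.07, adjusted p = 0.522), CDKN2B, the p15 inhibitor, had 0.05 (SE 0.09, adjusted p = 0.870), and the stress genes GADD45B and GADD45A had 0.24 (adjusted p = 0.266) and -0.34 (adjusted p = 0.306). Lists of 27 G1/S genes and 24 G2/M genes had 0 calls each and medians of -0.01 and -0.06, and their smallest p were those of TYMS (0.31), GINS2 (-0.18), AURKB (-0.16) and PRC1 (-0.11). In the apoptosis list of 16, 0 were called, the median was -0.04, and the members with the smallest p were the pro-death genes BCL2L11 (0.45) and BMF (0.63) on the positive side and the apoptosis inhibitor BIRC3 (-0.43) on the negative side. Of 16 epithelial genes 0 were called and the median was -0.01, with the tight-junction proteins OCLN at -0.32 and CLDN1 at -0.29. The 11 BMP and ID targets had 0 calls and a median of 0.04, with BMP6 at 0.34 and ID2 at -0.28.

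The lists with the lowest medians were cholesterol synthesis and, next to it, interferon-stimulated genes, both without a call (0.252% of all genes tested were called). Of 24 cholesterol genes 0 were called, 23 had negative values (59.4% of all genes did) and 5 were negative in 6 of 6 lines (4.31% of all genes were). The median interaction was -0.23, between -0.47 in Huh7 and -0.03 in SK-HEP1, with median responses of -0.24 in siSFPQ cells and -0.04 in siCTL cells. The sterol reductase DHCR7 (-0.26, adjusted p = 0.169) and the acetyl-CoA acetyltransferase ACAT2 (-0.34, adjusted p = 0.177) had the smallest p. Of 26 interferon-stimulated genes 0 were called, 21 had negative values and 7 were negative in 6 of 6 lines. Their median was -0.20, between -0.33 in HLE and 0.03 in HepG2, with median responses of -0.25 in siSFPQ cells and -0.05 in siCTL cells. ISG15, a ubiquitin-like modifier, had -0.40 (adjusted p = 0.0809), PSMB9, an immunoproteasome subunit, had -0.48 (adjusted p = 0.0859), and OAS1 and B2M, of antiviral sensing and antigen presentation, had -0.34 and -0.26. APOBEC3C, called above, belongs to neither list.

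**Figure D4:**
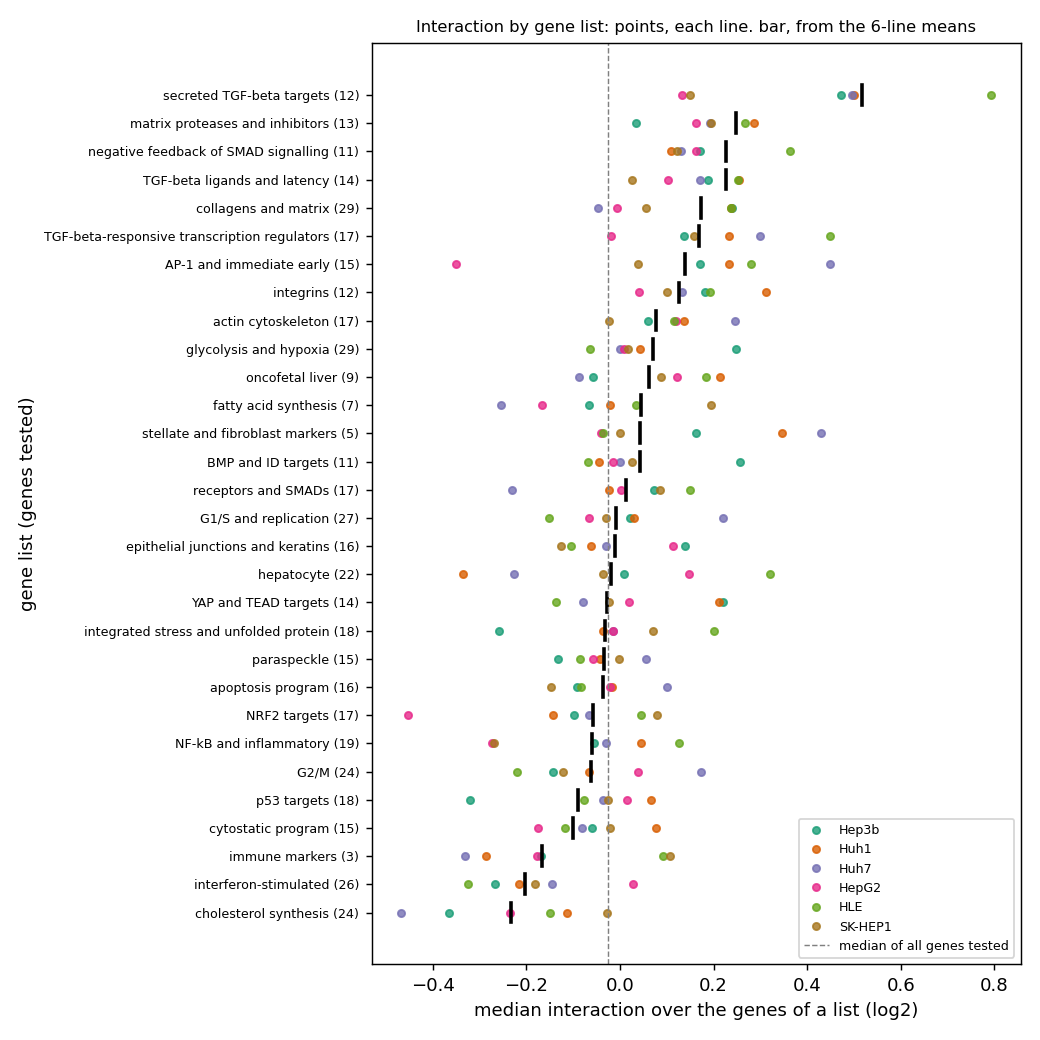
Median interaction over the genes of each list, in log2 units, with 1 point per line and a bar for the median of the 6-line means. The dashed line is the median of all genes tested (-0.03), secreted TGF-beta targets stand at the top (0.52), and cholesterol synthesis (-0.23) and interferon-stimulated genes (-0.20) at the bottom.

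The remaining lists had at most 1 call each, where 0.252% of all genes tested were called. In the glycolysis and hypoxia list of 29, ANKRD37 was called, PFKFB4 (0.19) followed by p, and the median was 0.07. The lists with 0 calls had medians of -0.06 for 19 NF-kB genes, -0.06 for 17 NRF2 targets, -0.03 for 18 integrated stress genes, -0.09 for 18 p53 targets, -0.03 for 15 paraspeckle genes, -0.03 for 14 YAP targets, 0.14 for 15 AP-1 and immediate early genes, 0.04 for 7 fatty acid genes, -0.02 for 22 hepatocyte genes and 0.06 for 9 oncofetal genes. NEAT1, the RNA scaffold of paraspeckles, had -0.15. In each of these lists the members with the smallest p did not pass over all genes. They were BIRC3 (-0.43) and the chemokine CXCL2 (-0.28) for NF-kB, PGD (-0.21) of the pentose phosphate pathway and the transporter ABCC2 (-0.51) for NRF2, and the factor XBP1 (0.23) and the chaperone CALR (-0.10) for integrated stress. GDF15 (-0.50) and the DNA repair gene DDB2 (0.30) had the smallest p among p53 targets, PSPC1 (0.15) and TAF15 (-0.18) among paraspeckle genes, and CTGF (0.50) and TEAD4 (-0.11) among YAP targets. JUND (0.33) and JUNB (0.40) had it among immediate early genes, and FASN, the fatty acid synthase (-0.17), and ME1, malic enzyme (0.18), among fatty acid genes. SERPINA1 (0.26) and APOA1 (0.55) stood for the hepatocyte list and H19 (0.25) and IGF2 (0.46) for the oncofetal list. Of 7 stellate and fibroblast markers 5 were tested and 0 called, with a median of 0.04, and PDGFRB, the receptor of PDGF, had 0.73 (adjusted p = 0.0859), followed by LUM (0.09). The summed level of these markers was 11.3, 55.2 and 129 FPKM in siSFPQ cells with TGF-beta and 6.36, 38.6 and 108 FPKM without it, against 9.62, 52.97 and 163 FPKM in siCTL cells with TGF-beta and 5.79, 46.1 and 140 FPKM without it. By line, COL3A1 was 93.8 FPKM in Hep3b and 69.9 in SK-HEP1, LUM was 69.4 in Huh1 and 17.4 in Hep3b, PDGFRB was 23.9 in SK-HEP1, PDGFRA was 17.5 in Huh7 and DCN was 12.1 in Hep3b (medians of 4 libraries). PDGFRA was under 0.1 FPKM in the other 5 lines, and DCN had a median of 0 in 3 lines. The part of these markers in the interaction was not tested. Of 6 immune markers 3 were tested and 0 called, with a median of -0.17 and LYZ at 0.33 and CD68 at -0.17.

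GC content moved with the calls. Transcript GC was known for 95.95% of the genes tested. Of 550 genes with at least 65% GC, 10 were called (1.82%), against 0.445% between 60% and 65% GC, 0.0821% between 45% and 50%, 0 of 2699 genes between 40% and 45%, and 2 of 1198 (0.167%) under 40%. The median interaction was 0.05 at 65% or more and between -0.03 and -0.01 in the lower classes. The reversed genes had a median GC of 66.2%, with 6 of 11 at 65% or more, and the gained genes 59.7%, with 4 of 20. Over all genes tested the median was 50.3%, with 550 of 12949 at 65% or more. With the GC trend removed from each library 22 genes were called, all among the 34, of which 13 were gained, 9 reversed and 0 lost. TMEM160 (1.03), ANGPTL4 (0.97), C4orf48 (0.66), SKIL (0.64), RUNX1 (0.63) and PLOD2 (0.57) stayed past the test. Another 12 did not, with adjusted p-values of 0.0573 to 0.0931. Of these CEBPB had 0.69 (0.74 before), VASN 0.66 (0.70 before), KCTD11 0.64 (0.63 before), CYB5A -0.51 (-0.54 before), MYL5 -0.53 (-0.53 before) and ALPK2 0.66 (0.64 before). SAMD1 had 0.51, C8orf82 0.45, C17orf89 0.41, PGP 0.36, ZNF580 0.35 and H1FX 0.34. Causes of the GC trend itself were not tested.

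**Figure D5:**
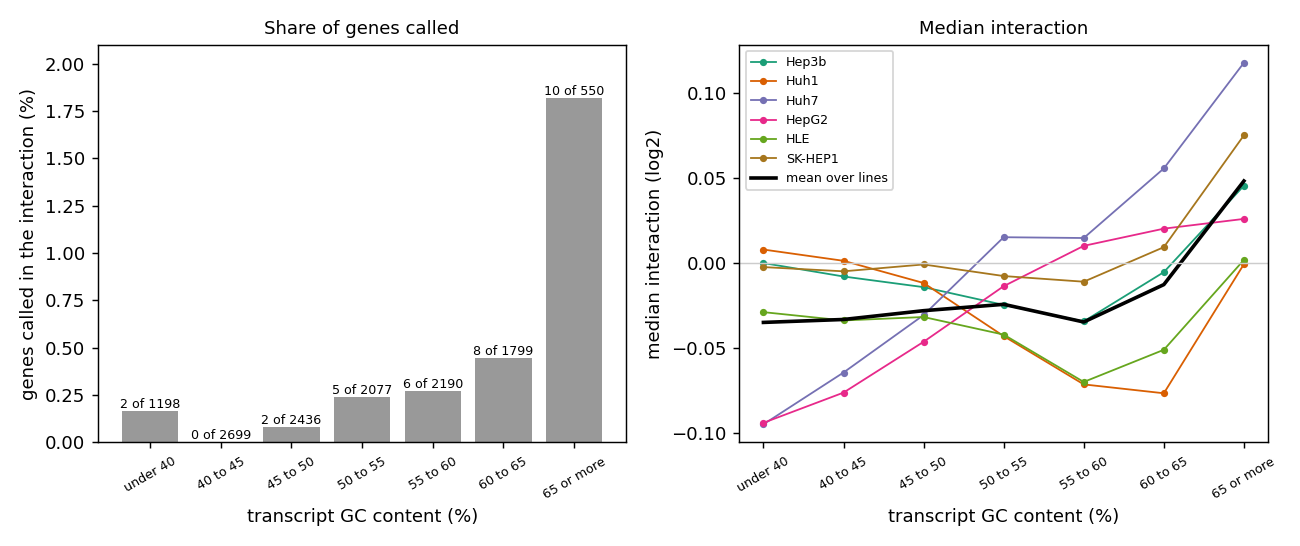
Share of genes called in the interaction (left, %) and median interaction (right, log2 units) by class of transcript GC content, with 1 coloured curve per line and the black curve for the 6-line means. The share called reaches 1.82% at 65% GC or more, and the curve of Huh7 climbs most with GC.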

How the data were processed

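Per the submitters' processing notes, TopHat2 2.1.1, Cufflinks 2.2.1 and the human build hg19 were used. Not given in the sources used here: annotation, settings, strand handling. The table the authors deposited as raw counts holds FPKM: its values are not whole numbers. Groups come from the sample titles, and 2 empty columns were not used. Libraries of 1 line are paired, by the line named in the labels, and deviated together from their group means (correlations of 0.874 to 0.978). No 2 libraries were identical. With 1 library per line and group, the lines are the replicates.

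The table has 23284 rows, of which the 1603 of short RNAs were dropped, since MIR4461 made up 33.6% to 51.6% of the FPKM sum. Values under 1e-06 were set to 0. Genes with at least 1 FPKM in at least 6 of the libraries of a comparison were tested on log2(FPKM + 1) with limma 3.58.1 in R 4.3.3 (eBayes with trend and robust shrinkage, Benjamini-Hochberg adjustment over all genes tested), which understates changes of low genes. The interaction fit used all 24 libraries with a baseline, an siRNA effect and a TGF-beta effect per line, and 1 common interaction. Each response used 12 libraries with the line as block. The fit was also run on simulated data with the same shift added in every line, which leaves out differences in interaction between lines. The genes, classes and 31 lists were chosen with earlier results of these data known. All called genes are named. Of each list at least the 2 members with the smallest p are named, and of each class the 8 with the smallest p. Depth limits the precision of low genes. Alternatives are given in the closing section.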

Additional observations from a re-analysis of the deposited data

Results flagged for a closer look

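The 31 named genes called in the interaction, whose response to TGF-beta depended on the siRNA, were flagged as differences between groups. Their interactions were 1.14 for TMEM160, 0.99 for ANGPTL4, 0.95 for PRR24, 0.88 for PLSCR3, 0.82 for ANKRD37, 0.79 for C4orf48, 0.76 for GPR56, 0.74 for CEBPB and 0.70 for VASN. They were 0.64 for ALPK2, 0.64 for ANKRD9, 0.63 for KCTD11, 0.61 for RUNX1, 0.60 for SKIL, 0.58 for ZNF579, 0.54 for NR2F6, 0.53 for PLOD2, 0.53 for C8orf82 and 0.53 for SAMD1. The smaller positive ones were 0.49 for GADD45GIP1, 0.47 for FAM214B, 0.42 for ZNF580, 0.41 for H1FX, 0.41 for MARCKSL1, 0.39 for C17orf89, 0.36 for PGP, 0.36 for BMP1 and 0.32 for YY1. The negative ones were -0.54 for CYB5A, -0.53 for MYL5 and -0.48 for APOBEC3C.

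In 10 of 160 genes, which are those named by rule and up to 4 members of each list, 1 line stood apart from the other 5 by Dixon's test (gap over range above 0.625), where chance flags about 1 in 20. Hep3b was the high line for PLOD2 (0.71), PALLD (0.66) and GADD45B (0.61). HepG2 was the high line for IRX3 (0.97) and the low line for JUND (-0.18) and TXNRD1 (-0.96). LMCD1 in HLE (3.87), CLDN4 in SK-HEP1 (2.45) and DCN in Huh1 (0.43) were high, and SMAD4 in Huh7 (-0.29) was low. DCN was near the floor in most lines, with medians of 12.1 FPKM in Hep3b, 1.08 in Huh1 and at most 0.0241 elsewhere.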

How the results depend on the processing

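All 34 called genes kept their sign under every alternative tried, while the number called moved. For fits without some lines this was fixed in advance, since each gene had 1 sign in 6 of 6 lines. Alternatives that change only the block or the shrinkage leave the interaction values as they were, so they could not change a sign either. Positive and negative calls numbered 13 and 0 with a pseudocount of 0.1, 31 and 3 with 2, 4 and 0 without the filter on low values, 32 and 8 with at least 1 FPKM in 12 libraries, 34 and 2 with libraries scaled to a common median ratio, 17 and 1 with short RNA rows kept, 14 and 1 without trend and robust shrinkage, 20 and 2 with the GC trend removed, and 12 and 2 without HepG2 and Huh7, which have the shallowest siSFPQ libraries. Leaving out 1 line gave 7 (without Huh1) to 24 (without Huh7) positive and 0 to 4 negative calls, 2 to 14 gained, 0 to 2 lost and 5 to 12 reversed. Gained, lost and reversed genes numbered 6, 0 and 7 with a pseudocount of 0.1, 2, 0 and 2 without the filter, 9, 0 and 9 with short RNA rows, 7, 0 and 8 without trend and robust shrinkage, 13, 0 and 9 with the GC trend removed, 26, 1 and 9 with median-ratio scaling, and 3, 1 and 10 without HepG2 and Huh7. With a limit for reversal of 0.1 the lost genes numbered 1, and with 0.3 there were 4 lost and 6 reversed. Dropping the effects of siRNA and TGF-beta per line ended every call: with the replicate block alone, 0 genes were called in either direction and in each class (203 at an unadjusted p under 0.05), and the same held with no replicate block (6). The causes of these moves were not tested.

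Values near 0 changed sign without passing. CDKN2B was -0.0604 with a pseudocount of 0.1, DCN -0.0844 with 0.1, and TAGLN 0.0042 with median-ratio scaling. Leaving out 1 line put SMAD4 between -0.0148 and 0.0710, CDKN2B between -0.0161 and 0.0885, TAGLN between -0.139 and 0.0762, TPM1 between -0.0188 and 0.102 and RGS5 between -0.139 and 0.154, and RGS5 was -0.0467 without HepG2 and Huh7. SFPQ stayed between 0.09 and 0.16. Depth is not given in the files and was estimated, and it limits genes near 1 FPKM most.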
